A study of Mus musculus with 2 samples.

Results

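The Wnt and planar cell polarity pathway was followed through 50 genes, chosen by name from a list of ligands, R-spondins, secreted inhibitors, receptors, beta-catenin steps, TCF/LEF factors, feedback targets and polarity genes. All 50 were found, by gene identifier, among the 47643 genes counted in both libraries, and 32 of them were kept, having reached 150 reads in siPhf6 or in siCtl cells, the limit set in the methods. The cells were wild-type cortical progenitors taken from the cortex of mouse embryos at embryonic day 14, labelled as male. They received by electroporation either siRNAs against Phf6 (siPhf6), which encodes a chromatin protein mutated in Börjeson-Forssman-Lehmann syndrome, or a non-targeting siRNA (siCtl), and were grown for 5 days before mRNA-seq. The methods describe replicate samples in each group. For each group 1 table of counts was analysed here, and whether samples were pooled in it is not stated. With 1 library per group no difference has a replicate check, so every comparison below is between these 2 libraries, without a test.

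Wnt proteins are secreted lipid-modified ligands that bind Frizzled receptors. In the beta-catenin branch, Frizzled and an Lrp co-receptor recruit Dishevelled and halt the complex of Axin, Apc and Gsk3 that marks beta-catenin for destruction, and beta-catenin then joins TCF/LEF factors on target genes. In the polarity branch, Frizzled works with Celsr, Vangl and Prickle proteins to orient cells within a sheet and to guide axons. In the embryonic cortex these pathways are known for patterning the dorsal telencephalon, for the balance between progenitor division and differentiation, and for the growth of axon tracts.

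The siPhf6 library held 10561757 reads in genes and the siCtl library 12155311, so a gene at an equal level has fewer reads in siPhf6 cells, and ratios below are of reads scaled by these totals. Phf6 itself had 310 reads in siPhf6 cells and 1420 in siCtl cells, and its level in siPhf6 cells was 25.2% of that in siCtl cells in RPM (reads per 1000000 gene reads). Over the 10130 genes that passed the limit, the median of the log2 ratio (siPhf6 over siCtl) was 0.0096, and the central 90% of genes lay between -0.50 and 0.53. The cells are labelled as progenitors, and both libraries held progenitor and neuronal transcripts side by side. The 8 neuronal markers, such as Tubb3 and Map2, summed to 391 RPKM (RPM per kb of exon) in siPhf6 cells and 387 in siCtl cells. The 11 radial glia markers, such as Vim and Fabp7, summed to 185 and 134 RPKM. The 5 intermediate progenitor markers summed to 155 RPM in siPhf6 cells and 113 in siCtl cells, nearly all of it Btg2 (1253 and 1011 reads) and Insm1 (344 and 311). The more specific markers were low, with 20 and 9 reads for Eomes, 22 and 48 for Neurog2, and 0 in both libraries for Neurog1.

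Of the 32 kept genes of the pathway, 25 were not called different between the 2 libraries. Fzd7 and Celsr1 were about doubled in siPhf6 cells, Znrf3 and Lrp5 were moderately higher, and Fzd1, Fzd3 and Apc2 were lower. A gene was called when its log2 ratio was past 0.25 in size and its 95% counting interval lay on one side of 0. By that rule 4 of the 32 kept genes were higher in siPhf6 cells and 3 were lower, beside 15.5% of all kept genes called higher and 14.7% called lower. The 7 called genes, 21.9% of the 32, were thus not a larger share than over all kept genes. Past 1.5-fold, 2 of the 32 were higher and 0 lower, against a background of 4.18% and 3.23%. The median log2 ratio of the 32 was -0.05, and their ratios ran between -0.54 and 1.09. Of the 25 kept genes that were not called, 10 had a ratio above 0 and 15 below.

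**Figure D1:**
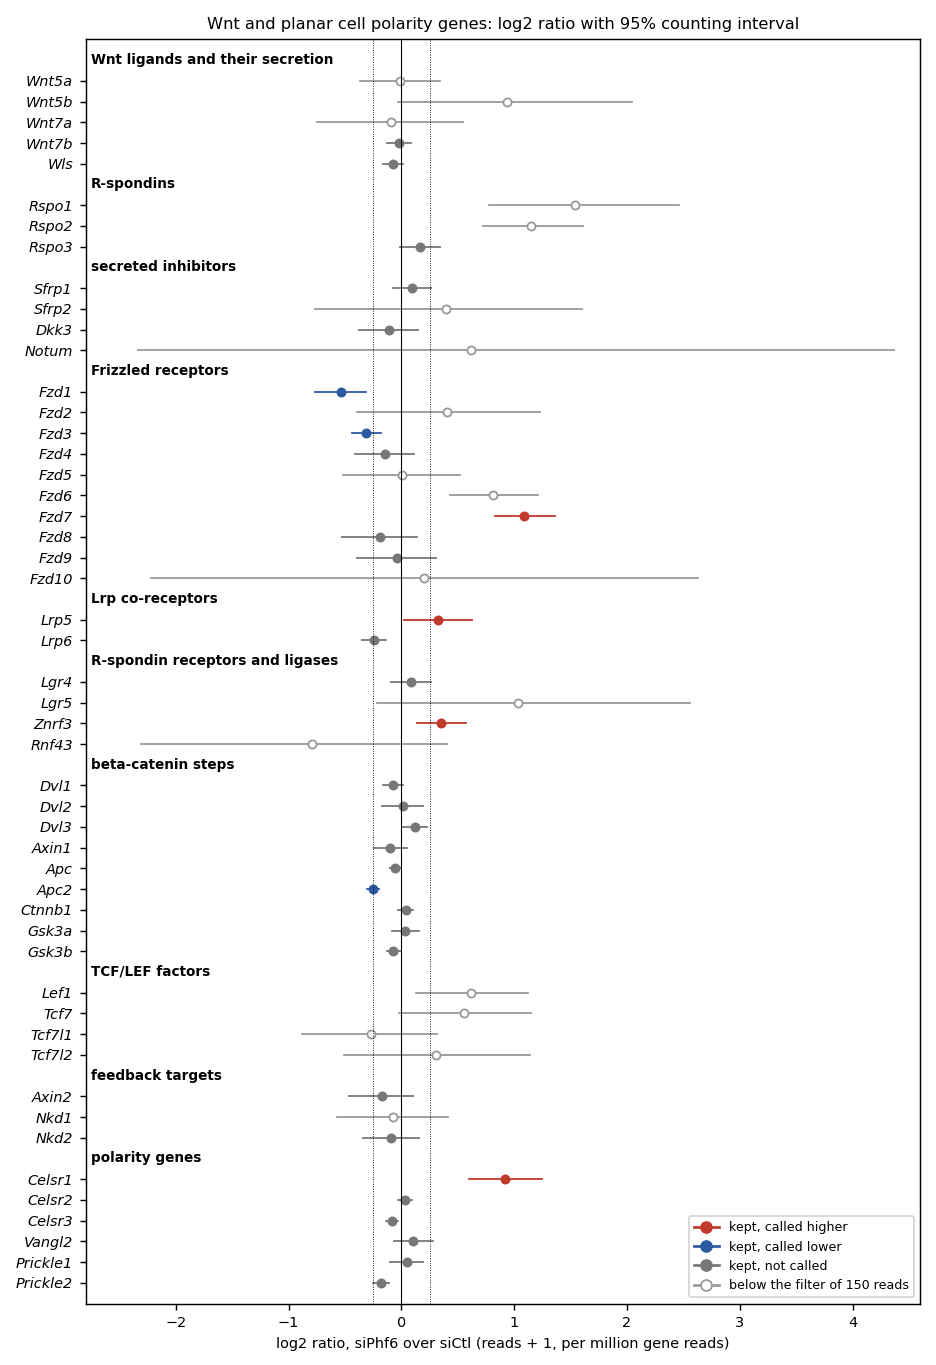
Horizontal axis: log2 ratio, siPhf6 over siCtl, of reads + 1 scaled to all gene reads, for the 50 genes by role, with the 95% counting interval as a bar. Filled points are the 32 genes kept, coloured where called, open points are the 18 below the limit of 150 reads, and dotted lines mark 0.25 in either direction; Fzd7 at 1.09 and Celsr1 at 0.92 lie farthest right among the filled points.

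Among the ligands, 1 gene carried most of the signal and differed between the libraries by less than its counting error. Wnt7b, a ligand known from cortical neurons, had 1310 reads in siPhf6 cells and 1530 in siCtl cells, a log2 ratio of -0.02 (interval -0.13 to 0.09). Per length it made up 87.8% of the summed level of the 4 Wnt ligands listed in siPhf6 cells and 88.9% in siCtl cells, and its level was 21.8 times that of Wnt7a in siPhf6 cells and 20.6 times in siCtl cells. Wls, the carrier that brings Wnt proteins to the cell surface, had 1970 and 2387 reads, a log2 ratio of -0.07 (-0.16 to 0.01). The other ligands were below the limit of 150 reads. Wnt5a, best known for signalling outside the beta-catenin branch, had 125 reads in siPhf6 cells and 145 in siCtl cells, and Wnt7a had 39 and 48. Wnt5b had 24 and 14 reads, with an interval of the log2 ratio from -0.03 to 2.04, so that no difference was detectable at this depth.

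The R-spondins, secreted proteins that strengthen Wnt signalling by removing the ligases Znrf3 and Rnf43 from the membrane, each had a higher RPM in siPhf6 cells. Rspo3 was the main one, with 504 reads in siPhf6 cells and 517 in siCtl cells, a log2 ratio of 0.17 (-0.01 to 0.35) that was not called. The other members, both below the limit, stood farther apart. Rspo2 had 130 and 67 reads, a log2 ratio of 1.15 (0.72 to 1.61), and Rspo1 had 47 and 18 reads, a ratio of 1.54 (0.78 to 2.46). Summed over the family, R-spondin reads came to 64.5 RPM in siPhf6 cells and 49.5 in siCtl cells, a log2 ratio of 0.38 (0.22 to 0.54). Per length, Rspo3 made up 76.7% of the family in siPhf6 cells and 88.2% in siCtl cells, and it stood 6.41 times above Rspo2 in siPhf6 cells and 12.8 times in siCtl cells.

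R-spondins bind Lgr receptors, and the ligases they act on remove Frizzled from the surface. Znrf3, one of these ligases, had 363 reads (34.4 RPM) in siPhf6 cells and 327 (26.9 RPM) in siCtl cells, a log2 ratio of 0.35 (0.13 to 0.57), and was called higher. Lgr4, the most abundant Lgr receptor listed, had 502 and 544 reads and a ratio of 0.09 (-0.09 to 0.26). Lgr5, a stem cell marker in several adult tissues, had 15 and 8 reads, and Rnf43, the partner of Znrf3, had 8 and 17. Both were too shallow for their intervals to leave 0.

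The secreted inhibitors did not differ in a called way. Sfrp1, which binds Wnt proteins outside the cell, was the most abundant, with 564 reads in siPhf6 cells and 609 in siCtl cells, a log2 ratio of 0.09 (-0.08 to 0.26). Dkk3, a divergent member of the Dickkopf family, had 224 and 279 reads and a ratio of -0.11 (-0.37 to 0.14). Sfrp2 had 15 and 13 reads, and Notum, an enzyme that strips the lipid from Wnt proteins, had 3 and 2.

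The Frizzled family differed in make-up and hardly in total. Its 10 genes summed to 34.2 RPKM in siPhf6 cells and 34.1 in siCtl cells. Fzd7, a receptor used in stem and progenitor cells of several tissues, had 330 reads (31.2 RPM) in siPhf6 cells and 178 (14.6 RPM) in siCtl cells, a log2 ratio of 1.09 (0.83 to 1.36) that was above that of 99.2% of kept genes. Fzd1, another receptor of the beta-catenin branch, had 257 reads (24.3 RPM) in siPhf6 cells and 430 (35.4 RPM) in siCtl cells, a ratio of -0.54 (-0.77 to -0.31). Fzd3, which works with Celsr3 in laying down forebrain axon tracts in the mouse, had 866 reads (82.0 RPM) in siPhf6 cells and 1237 (102 RPM) in siCtl cells, a ratio of -0.31 (-0.44 to -0.19). The interval of each of these receptors lay on one side of 0. The remaining 7 genes included 3 that were kept and not called. Fzd4 had 221 and 282 reads, Fzd8 134 and 176, and Fzd9 129 and 153. Both Fzd8 and Fzd9 passed the limit through siCtl cells alone. Of the 4 below the limit, Fzd6, a polarity receptor of skin and hair, was higher, with 142 reads in siPhf6 cells and 93 in siCtl cells and a log2 ratio of 0.81 (0.43 to 1.21). Fzd5 had 61 and 70 reads, Fzd2 30 and 26, and Fzd10 4 and 4.

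The order of the Frizzled levels differed as well. Fzd7 held 20.2% of the summed Frizzled level in siPhf6 cells, where it ranked first, and 9.48% in siCtl cells, where it ranked 5 of the 10. Fzd1 held 17.0% in siPhf6 cells and 24.7% in siCtl cells, where it was the highest. Fzd3 was second in both, with 18.7% and 23.3%. In siPhf6 cells the levels were close for Fzd7 (6.89 RPKM, counting interval 6.17 to 7.68), Fzd3 (6.40, 5.98 to 6.84) and Fzd1 (5.80, 5.11 to 6.55). Their separate intervals overlapped, and no interval was computed for the differences between these genes, so their order there is not settled. In siCtl cells Fzd1 (8.43, 7.65 to 9.26) and Fzd3 (7.95, 7.51 to 8.40) overlapped each other, and both lay above Fzd7 (3.23, 2.77 to 3.74). The level of Fzd7 over that of Fzd1 was 1.19 in siPhf6 cells and 0.383 in siCtl cells.

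**Figure D2:**
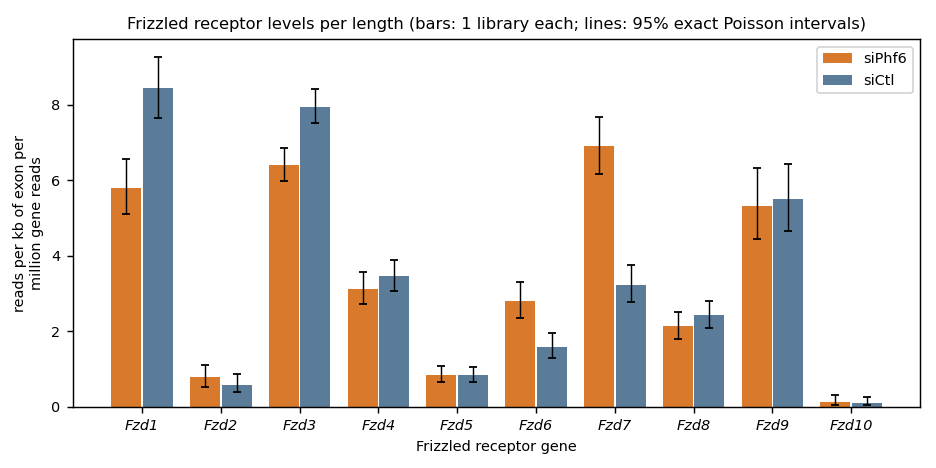
Level of each Frizzled gene in RPKM, siPhf6 beside siCtl, with the 95% Poisson counting interval as a bar. Fzd7 stands at 6.89 in siPhf6 cells and 3.23 in siCtl cells, and Fzd1 at 5.80 and 8.43.

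Fzd7 lies at chr1:59482424-59486955 on the plus strand and Fzd1 at chr5:4753839-4758035 on the minus strand (GRCm38), and each is annotated as a single exon. The 250 bases before the RefSeq start of each, read in the direction of the gene, are shown because these receptors had called ratios of opposite sign. RefSeq places both starts upstream of the start used for the gene coordinates above. Capitals mark AACAAAG, the reverse complement of CTTTGTT, one of the forms of the TCF/LEF binding motif.
Fzd7 promoter, chr1:59481897-59482146, plus strand: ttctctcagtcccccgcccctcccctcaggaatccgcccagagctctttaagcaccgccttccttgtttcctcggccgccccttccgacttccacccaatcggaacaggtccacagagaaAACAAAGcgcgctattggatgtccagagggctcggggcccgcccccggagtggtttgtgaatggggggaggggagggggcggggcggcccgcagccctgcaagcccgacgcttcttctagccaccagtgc
Fzd1 promoter, chr5:4758217-4758466, minus strand: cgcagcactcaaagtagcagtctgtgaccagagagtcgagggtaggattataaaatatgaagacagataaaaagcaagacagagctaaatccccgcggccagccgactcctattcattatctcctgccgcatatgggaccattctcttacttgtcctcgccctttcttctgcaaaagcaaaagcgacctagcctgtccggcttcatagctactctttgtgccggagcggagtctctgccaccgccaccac
The Fzd7 window was richer in G and C, at 65.2% against 51.2% for Fzd1, and held the motif 130 bases before the start, whereas the Fzd1 window held neither CTTTGTT nor CTTTGAT on either strand. Only 32 of the 50 genes, and 3 of the 7 called, had a promoter window in the table. CTTTGAT or CTTTGTT, searched on both strands of windows that run from 250 bases before to 50 after the start, was present in 5 of the 48 windows of these 32 genes, or 10.4%, and in 9.33% of all 32851 windows. Of the called genes with a window, Apc2 held CTTTGTT as well, 21 bases before 1 of its several starts. In all, 2 of the 6 windows of the 3 called genes held a motif, too few windows to set against the share over all.

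The co-receptors showed opposite ratios. Lrp5 had 197 reads (18.7 RPM) in siPhf6 cells and 181 (14.9 RPM) in siCtl cells, a log2 ratio of 0.32 (0.03 to 0.62), and was called higher. Lrp6, the main one, had 1249 and 1700 reads, a ratio of -0.24 (-0.35 to -0.14) just short of the size needed. It was called lower when counts were scaled by TMM or DESeq2 size factors. The level of Lrp5 over that of Lrp6 was 0.221 in siPhf6 cells and 0.149 in siCtl cells.

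The steps between receptor and beta-catenin were abundant and close in the 2 libraries. All 9 genes were kept, with a median log2 ratio of -0.06, and 1 was called. Ctnnb1, which encodes beta-catenin, had 3390 reads in siPhf6 cells and 3802 in siCtl cells, a ratio of 0.04 (-0.03 to 0.10), and per length the highest level of the 50 genes, 61.8 RPKM in siPhf6 cells and 60.2 in siCtl cells. Apc, the scaffold of the destruction complex, had 7632 and 9131 reads and a ratio of -0.06 (-0.10 to -0.01). Apc2, its relative in the nervous system, had 4670 reads (442 RPM) in siPhf6 cells and 6413 (528 RPM) in siCtl cells, a ratio of -0.25 (-0.31 to -0.20) that sat at the limit of a call. The level of Apc over that of Apc2 was 1.14 in siPhf6 cells and 0.997 in siCtl cells. None of the other 6 was called. The kinase genes Gsk3b (4705 and 5692 reads) and Gsk3a (1049 and 1178) had ratios of -0.07 and 0.04. The Dishevelled genes Dvl1 (1765 and 2141 reads), Dvl2 (489 and 559) and Dvl3 (1240 and 1316) had ratios of -0.08, 0.01 and 0.12. Axin1, a scaffold of the complex, had 698 and 861 reads and a ratio of -0.10.

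All 4 TCF/LEF genes were below the limit of 150 reads. Lef1, usually an activator, had 83 reads in siPhf6 cells and 62 in siCtl cells, a log2 ratio of 0.62 (0.13 to 1.12). The other TCF genes were as shallow, and none had an interval clear of 0. Tcf7, prominent in T cells, had 59 and 46 reads, a ratio of 0.56 (-0.02 to 1.15). Tcf7l2 had 28 and 26 reads, a ratio of 0.31 (-0.51 to 1.14). Tcf7l1, usually a repressor, had 43 and 60 reads, a ratio of -0.27 (-0.88 to 0.31). Summed over the 4, the reads came to 20.2 RPM in siPhf6 cells and 16.0 in siCtl cells, a ratio of 0.34 (0.05 to 0.63).

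The feedback targets, whose transcription beta-catenin signalling raises in many tissues, held no called gene. Axin2, a scaffold that restrains the pathway, had 185 reads in siPhf6 cells and 241 in siCtl cells, a log2 ratio of -0.18 (-0.46 to 0.10). Nkd2 had 245 and 301 reads, a ratio of -0.09 (-0.34 to 0.15). Nkd1 had 66 and 80 reads, a ratio of -0.07 (-0.57 to 0.41). Both encode Naked cuticle proteins, which bind Dishevelled. All 3 had a lower RPM in siPhf6 cells, and each interval spanned 0, as did that of their sum, 47.0 RPM in siPhf6 cells and 51.2 in siCtl cells (log2 ratio -0.12, interval -0.30 to 0.05).

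Of the 6 polarity genes 1 was called. Celsr1, an atypical cadherin known from neural progenitors in the mouse, had 214 reads (20.3 RPM) in siPhf6 cells and 130 (10.7 RPM) in siCtl cells, a log2 ratio of 0.92 (0.60 to 1.25), and passed the limit of 150 reads through siPhf6 cells alone. Its relatives, known for later roles in neurons, were far more abundant and close in the 2 libraries. Celsr2 had 3864 and 4356 reads, a ratio of 0.03 (-0.03 to 0.09). Celsr3 had 4995 and 6102 reads, a ratio of -0.09 (-0.14 to -0.03). Per length, Celsr1 made up 2.53% of the family in siPhf6 cells and 1.32% in siCtl cells. Vangl2, the membrane partner of Prickle, had 542 and 580 reads and a ratio of 0.11 (-0.07 to 0.28), and Prickle1 had 743 and 829 reads and a ratio of 0.04 (-0.10 to 0.19). Prickle2 had 2911 and 3801 reads, a ratio of -0.18 (-0.25 to -0.11) that was not called.

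Prickle2 was the only one of the 32 genes with a promoter window that held CACACACA on the gene's own strand or the other, a search made because the study describes runs of CA at PHF6 binding sites. It was chosen after the values had been seen. Capitals mark the repeat in the stretch from 180 to 111 bases before 1 of its RefSeq starts.
Prickle2 promoter, chr6:92481503-92481572, minus strand: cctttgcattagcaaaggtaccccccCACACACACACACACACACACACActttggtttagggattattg
Over all 32851 windows, 4.09% held CACACACA. None of the called genes with a window (Fzd7, Fzd1 and Apc2) did.

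**Figure D3:**
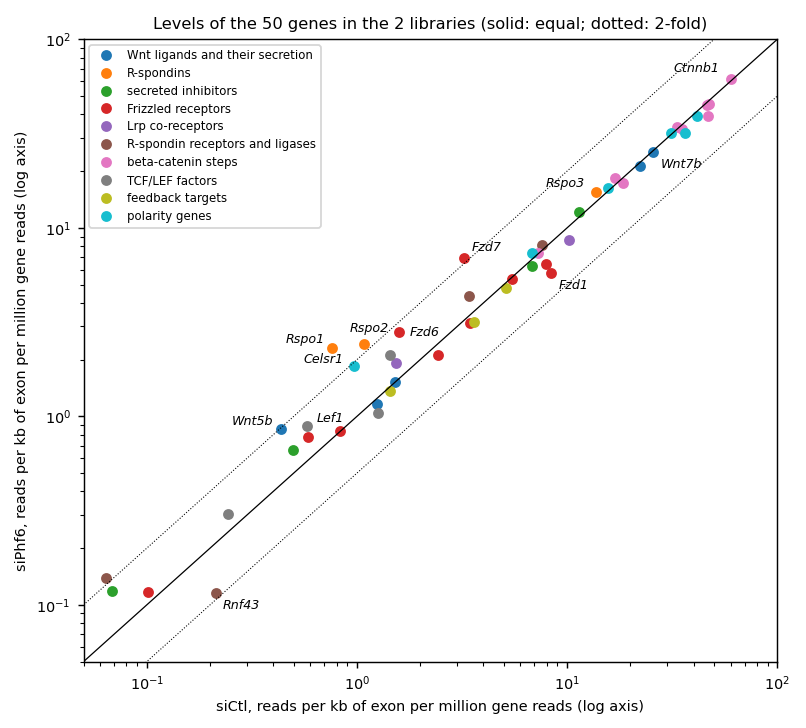
Level of the 50 genes in siPhf6 (vertical axis) and siCtl (horizontal axis), both in RPKM on log axes, coloured by role. The solid line marks equal levels and the dotted lines 2-fold; Fzd7 lies above the upper dotted line, and the abundant beta-catenin steps, up to Ctnnb1 at 61.8 and 60.2, lie near the solid line.

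Markers of dividing and other cells also differed between the libraries. The 6 markers of dividing cells each had a higher RPM in siPhf6 cells, with a sum of 59.7 RPM in siPhf6 cells and 27.0 in siCtl cells. Of the 11 radial glia markers 10 were higher, with a sum of 1056 RPM in siPhf6 cells and 757 in siCtl cells. Sox2 was lower, with 208 reads in siPhf6 cells and 280 in siCtl cells (log2 ratio -0.22, interval -0.49 to 0.04). The 6 markers of meningeal fibroblasts summed to 38.1 RPM in siPhf6 cells and 19.2 in siCtl cells, mostly from Col1a1, Col1a2 and Col3a1. Of the 6, 5 were higher, Dcn barely so (3.88 and 3.87 RPM), and Foxc1 was lower (8 and 28 reads). The 6 astrocyte markers summed to 444 RPM in siPhf6 cells and 318 in siCtl cells, with 4 of 6 higher. Most of that sum was Slc1a2 (364 and 242 RPM), and Gfap (30.2 and 33.3) and Gja1 (27.2 and 27.6) were lower. The 5 markers of Cajal-Retzius cells, almost all of them Reln, summed to 155 RPM in siPhf6 cells and 288 in siCtl cells, with 4 of 5 lower. The 6 markers of the oligodendrocyte lineage summed to 90.7 RPM in siPhf6 cells and 69.9 in siCtl cells. Of these, 5 of 6 were higher, among them Olig2 (log2 ratio 1.15), Olig1 (0.80) and Sox10, with 6 reads in both libraries. Mbp was lower, with 258 reads in siPhf6 cells and 369 in siCtl cells (log2 ratio -0.31). The 5 markers of mural cells summed to 56.1 RPM in siPhf6 cells and 68.8 in siCtl cells, but 3 of 5 had a higher RPM in siPhf6 cells. The 2 lower ones were Acta2 (log2 ratio -0.92) and Rgs5 (-0.33). The sum of the 8 neuronal markers was 2866 RPM in siPhf6 cells and 2826 in siCtl cells. Signals of the cortical hem, a source of Wnt ligands in the embryo, were low, at 6.06 RPM in siPhf6 cells and 5.68 in siCtl cells over 6 genes, nearly all of it Wnt2b (59 and 50 reads). Lmx1a, a defining gene of the hem, had 0 reads in siPhf6 cells and 13 in siCtl cells, and Wnt3a and Wnt8b had 0 in both libraries. The parts of these cell types in the ratios of Fzd7, Fzd6, Fzd1, Fzd3, Celsr1, Rspo1 and Rspo2 were not tested, and in such bulk samples fewer cells of a type and less RNA per cell cannot be told apart.

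A wider list of 97 other Wnt and polarity genes, 58 of them kept, held 10 called higher and 10 called lower, or 34.5%, with a median log2 ratio of -0.04. That is near the background of 15.5% higher and 14.7% lower over all kept genes. Past 1.5-fold, 3 were higher and 4 lower, beside 4.18% and 3.23% of all kept genes. Among the higher ones, Dkk2, an Lrp-binding regulator, had 203 reads in siPhf6 cells and 77 in siCtl cells (log2 ratio 1.59, interval 1.216 to 1.999). The others were Ccnd1, a cyclin of the G1 phase (184 and 104 reads, 1.02, 0.67 to 1.39), and Wif1, a secreted Wnt inhibitor (376 and 245 reads, 0.82, 0.58 to 1.06). The lower ones included Draxin, a guidance protein and Wnt antagonist (107 and 353 reads, -1.51, -1.85 to -1.20), and Tnks, a tankyrase that marks Axin for destruction (1922 and 3976 reads, -0.85, -0.93 to -0.77). Dact1, which binds Dishevelled (409 and 776 reads), and Fat4, a giant cadherin of the polarity branch (2858 and 5322 reads), had ratios of -0.72 and -0.69. Dkk2 and Ccnd1 passed the limit through siPhf6 cells alone and Draxin through siCtl cells alone.

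**Figure D4:**
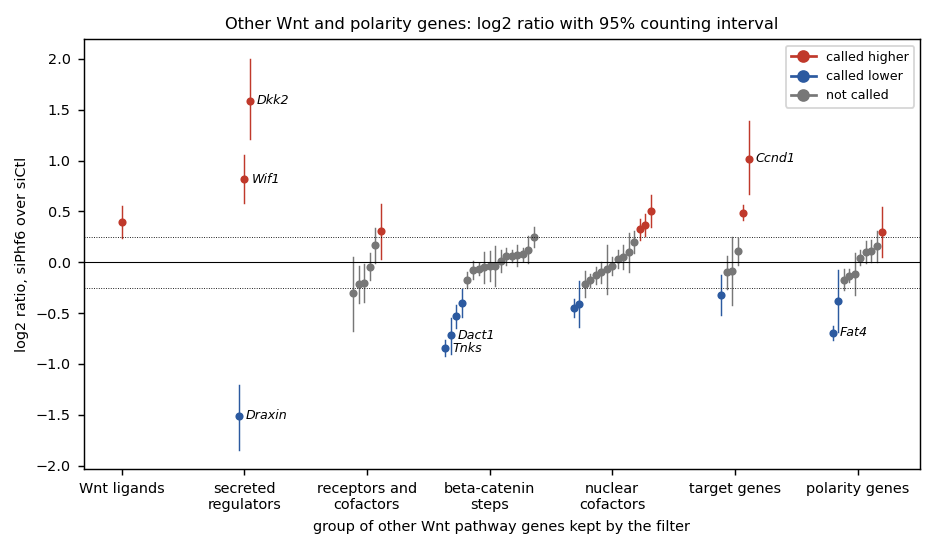
Vertical axis: log2 ratio, siPhf6 over siCtl, for the kept genes of the wider list of 97 Wnt and polarity genes, grouped by role along the horizontal axis, with the 95% counting interval as a line. Dkk2 at 1.59 and Draxin at -1.51 mark the ends.

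The called differences in Fzd3, Lrp5, Znrf3 and Apc2 were modest in size, and none of them kept its call when a coefficient of variation between cultures of 0.1 is assumed, whereas Fzd7, Celsr1 and Fzd1 did. On GRCm38, Celsr1 lies at chr15:85898929-86033777 and Znrf3 at chr11:5276324-5444847, Lrp5 at chr19:3584828-3686564 and Fzd3 at chr14:65192449-65262463, all on the minus strand, and Apc2 at chr10:80295977-80318263 on the plus strand. Reads were counted over all annotated exons of each. Libraries of this kit carry no strand information, and reads of genes that overlap on either strand cannot be told apart. Here 16 of the 50 genes share exon bases with another gene. Of the called genes that holds for Apc2 alone, over 0.0886% of its exon bases.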

How the data were processed

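mRNA-seq libraries (TruSeq RNA v2) of siPhf6 and siCtl cortical progenitors were compared, 1 of each, grouped by the treatment label. The deposited values are whole-number read counts per gene: the authors used HISAT2 for mapping to mm10, samtools for removing duplicates and HTSeq with GENCODE M9 for counting. Versions for these mRNA-seq steps are not given in the sources used here; deepTools 3.5.1 and mm10 are listed in the submitters' processing notes. HTSeq's lines for reads in no feature (24.1% in siPhf6, 25.3% in siCtl) and ambiguous reads (2.04% and 1.99%) were left out of library totals.

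Counts plus 1 read were scaled by total gene reads (10561757 in siPhf6 and 12155311 in siCtl) to give log2 ratios. Genes that reached 150 reads in either library were kept. A gene was called when its log2 ratio was past 0.25, or past 1.5-fold, and its exact Clopper-Pearson 95% interval lay on one side of 0. Intervals cover counting error only, since 1 library per group gives no spread between cultures. Reads carry no molecular identifiers. The floor of 3 reads is 0.284 RPM in siPhf6 and 0.247 in siCtl. No test was possible with 1 library per group. Exon lengths, positions and symbols came from GENCODE M21 (GRCm38) by identifier without version, with 10114 of 10130 kept genes matched. Promoter windows came from RefSeq on GRCm38.p6. The members and gene lists were chosen with earlier results of these data known. All members are named; of the wider list, those past 1.5-fold are. Alternatives were TMM (edgeR 4.0.16) and DESeq2 1.42.0 size factors, totals without the 50 most abundant and mitochondrial genes, filters of 10 and 500 reads, 0.5 or 10 reads added, a binomial test of the reads (FDR 0.01), an assumed coefficient of variation of 0.1, and length and GC trends subtracted. Scripts were tested on simulated data and run with Python 3.11.15, scipy 1.17.1 and R 4.3.3.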

Additional observations from a re-analysis of the deposited data

How the results depend on the processing

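With a filter of 10 reads, 8 of 48 genes were called higher and 6 were higher past 1.5-fold; the gains were Rspo1, Rspo2, Fzd6 and Lef1. With 500 reads, 0 of 21 genes were higher under either rule, because Fzd7, Celsr1, Znrf3 and Lrp5, and Fzd1 among the lower ones, had fewer reads. Over all genes these filters gave 2408 and 853 called higher, against 1574, and 1948 and 899 called lower, against 1487. Assuming a coefficient of variation of 0.1 left 2 called higher (Fzd7 and Celsr1) and 1 lower (Fzd1). Over all 10130 kept genes it left 665 higher (6.56%) and 632 lower (6.24%). Lrp5 lost its call in the binomial test and Apc2 under the length trend. TMM and DESeq2 size factors shifted all genes by -0.0092 and added Lrp6 as lower. No called gene changed sign. Of 425 single-gene values (40 genes, 11 settings), 424 stayed within the gene's counting interval, and Apc came to -0.0086 under the length trend. The filters, the binomial test and the assumed coefficient of variation leave every ratio as it was. Their values among the 425 were therefore bound to stay. Ratios near 0 did change sign with the GC trend subtracted: Gsk3a to -0.01, Dvl2 to -0.03 and Celsr2 to -0.01, none of them called. The median of the kept genes came to 0.0086 with the filter of 10 reads, against -0.05. No paired analysis was possible because each group had 1 library, which also leaves no replicate to omit. Depth limits the TCF/LEF genes, Wnt5b, Lgr5, Rnf43 and Notum, whose reads were few.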
